A study of Homo sapiens with 4 samples.

Results

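The comparison set 1 library of cells with a hairpin against SETDB1 beside 1 library of Control hairpin cells, both under sorafenib. It covered every gene with a mean of at least 1 CPM (a count scaled to the library's total) over these 2 libraries, which were 13079 of the 28278 genes in the deposited table. Of these members, 96 were read-through loci, 71 were structural RNAs and 188 had uncharacterised LOC symbols, and genes were named from the remaining 12724. The gene nearest below the limit had a mean of 0.999447 CPM and the one nearest above it 1.00014 CPM.

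Per the labels, the cells were HepG2, a human liver cancer line, and received lentiviral short hairpin RNAs. All 4 libraries of the series came from cells given 10 µM sorafenib, a multikinase inhibitor used in liver cancer, for 48 hours. They were 1 Control hairpin library, 1 library from each of 2 hairpins against ATF7IP, and 1 library from 1 hairpin against SETDB1. Untreated cells were not analysed here, and effects of a hairpin on other targets cannot be told apart from those of the SETDB1 loss. Control and SETDB1 knockdown had 1 library each, so their differences have no replicate check. In the edgeR quasi-likelihood fit only the 2 ATF7IP libraries give a spread (1 residual degree of freedom), and the p-values assume that Control and SETDB1 knockdown vary like them. Nothing in the labels says whether libraries came from separate cultures. These are bulk libraries, in which fewer cells of a type and less RNA per cell cannot be told apart.

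SETDB1 is a histone methyltransferase that trimethylates histone H3 lysine 9, a mark of silent chromatin. It is brought to DNA by TRIM28, which binds KRAB zinc finger proteins, and it works with its partner ATF7IP and with the HUSH complex of TASOR, MPHOSPH8 and PPHLN1. It is known for keeping endogenous retroviruses, germline genes, imprinted genes and zinc finger gene clusters silent.

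Library totals ranged from 70236882 to 73791097 estimated counts, and 18256 to 18572 genes were above 0. The share of counts on ribosomal RNA genes was highest in SETDB1 knockdown at 0.721%, beside 0.325% in Control and 0.489% and 0.408% with ATF7IP hairpins 1 and 2. Every set of 4 values begins with Control, ends with SETDB1 knockdown and has ATF7IP hairpins 1 and 2 between them. The 7SL genes RN7SL1 and RN7SL2, which code for the RNA of the signal recognition particle, summed to 1.91, 11.6, 11.8 and 45.3 CPM. The defining hepatocyte genes were at or near 0 in the libraries labelled HepG2. ALB, AFP, APOB, TTR and GPC3 had 0 counts in all 4 libraries, and APOA1, SERPINA1, FGB and HNF4A had at most 12 counts in any library. Of 66 hepatocyte genes in the table, 41 were at or under the floor of 12 counts in every library and 11 were members. KRT7, a keratin of bile duct and other simple epithelia, was at 1809, 1871, 1007 and 1047 CPM, and VIM, an intermediate filament of mesenchymal cells, at 494, 538, 380 and 482 CPM. Of the fibroblast and stellate markers, COL3A1 was at 335, 191, 155 and 155 CPM, LUM at 81.6, 25.98, 25.9 and 92.5 CPM and DCN at 12.8, 4.68, 5.30 and 12.2 CPM, and COL1A2 was at 11, 7, 5 and 0 counts. Endothelial markers summed to at most 0.935 CPM in any library. Immune markers summed to 22.8, 25.1, 27.8 and 43.1 CPM, nearly all of it CD68, with LYZ at 4 counts or fewer. The liver label was thus not borne out by these genes, and the cells are called by their hairpins here.

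Heat shock promoters are shown first because the chaperone list had a larger median difference from Control than the endoplasmic reticulum, ATF4 or NRF2 stress lists. Heat shock factors bind inverted repeats of GAA, and the letters GAANNTTC or TTCNNGAA, read on both strands, stand for adjacent units. Capitals mark each match, overlapping matches are joined, and each window runs from 250 bases before to 50 bases after the start in RefSeq (GRCh38.p14).
HSPA1A, chr6:31815293-31815592 on the plus strand, with 1 match.
HSPA1A: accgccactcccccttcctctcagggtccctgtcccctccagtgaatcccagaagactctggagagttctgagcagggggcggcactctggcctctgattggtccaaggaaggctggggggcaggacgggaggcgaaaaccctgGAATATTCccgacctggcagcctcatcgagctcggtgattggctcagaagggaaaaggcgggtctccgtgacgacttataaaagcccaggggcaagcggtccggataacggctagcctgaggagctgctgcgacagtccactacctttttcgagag
HSPA8, chr11:123062087-123062386 on the minus strand, with 4 matches.
HSPA8: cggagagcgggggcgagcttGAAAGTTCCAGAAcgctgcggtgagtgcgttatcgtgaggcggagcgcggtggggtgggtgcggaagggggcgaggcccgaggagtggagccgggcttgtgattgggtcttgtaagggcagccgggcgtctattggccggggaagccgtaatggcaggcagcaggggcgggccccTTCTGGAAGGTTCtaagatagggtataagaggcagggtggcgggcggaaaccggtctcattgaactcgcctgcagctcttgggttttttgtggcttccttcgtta
CHORDC1, chr11:90223000-90223299 on the minus strand, with 6 matches.
CHORDC1: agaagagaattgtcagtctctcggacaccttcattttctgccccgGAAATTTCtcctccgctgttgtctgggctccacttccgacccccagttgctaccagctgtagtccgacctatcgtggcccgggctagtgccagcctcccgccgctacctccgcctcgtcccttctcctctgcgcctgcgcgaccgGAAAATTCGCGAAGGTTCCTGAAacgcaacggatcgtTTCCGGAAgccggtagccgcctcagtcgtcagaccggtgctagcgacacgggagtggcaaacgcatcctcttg
The match in HSPA1A began 106 bases before the start. In HSPA8 matches lay 230 and 225 bases and again 55 and 50 bases before the start, and in CHORDC1 a run of 4 lay 60 to 45 bases before it.

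Interferon response promoters are shown because several of these genes had their lowest value of all 4 libraries in SETDB1 knockdown. Interferon-activated factors bind repeats of GAAA, and the letters GAAANNGAAA or TTTCNNTTTC were searched on the same windows.
IFI6, chr1:27672143-27672442 on the minus strand, with 3 matches.
IFI6: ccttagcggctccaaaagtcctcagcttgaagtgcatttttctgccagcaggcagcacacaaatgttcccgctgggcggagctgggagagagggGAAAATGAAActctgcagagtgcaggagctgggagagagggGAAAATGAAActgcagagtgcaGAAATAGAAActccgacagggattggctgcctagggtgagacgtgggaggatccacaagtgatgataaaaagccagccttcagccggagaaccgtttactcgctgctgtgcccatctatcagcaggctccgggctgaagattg
IFI27, chr14:94110486-94110785 on the plus strand, with 2 matches.
IFI27: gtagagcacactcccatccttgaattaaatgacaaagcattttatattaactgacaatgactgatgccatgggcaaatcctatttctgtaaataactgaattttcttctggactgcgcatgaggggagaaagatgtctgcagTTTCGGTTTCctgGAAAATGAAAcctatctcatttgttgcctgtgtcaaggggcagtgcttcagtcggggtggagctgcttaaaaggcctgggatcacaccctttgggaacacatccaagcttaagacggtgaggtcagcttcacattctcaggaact
The matches began 156, 115 and 93 bases before the IFI6 start, and 108 and 95 bases before the IFI27 start.

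Over all members the median log2 difference of SETDB1 knockdown from Control was −0.0045, and the middle 50% of genes lay between −0.23 and 0.20. By size alone, 176 members were at least 2-fold higher in SETDB1 knockdown (1.35% of the 13079) and 231 were at least 2-fold lower (1.77%), with no replicate check. Genes outside the read-through, structural and LOC classes made up 149 of the higher and 210 of the lower. Members of 1 to 5 CPM gave 127 of the 176 higher genes. Of 606 long noncoding RNAs, 3.96% were at least 2-fold higher and 4.95% lower, against 1.12% and 1.59% of 12006 protein-coding genes. On chromosome 19, 22 of 829 members were at least 2-fold higher and 9 lower, and on chromosome X 13 of 427 were higher and 7 lower. The shares were larger on chromosome 21, where 5 of 145 were higher (3.45%) and 7 lower (4.83%).

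The edgeR quasi-likelihood test called 12 of 16900 genes (0.071%) at a Benjamini-Hochberg adjusted p under 0.05, of which 11 were members, 7 higher and 4 lower. Of the 11, 5 were read-through loci and 2 were the 7SL RNA genes RN7SL1 and RN7SL2. CALB1, ZNF114 and PSG9 were called higher and U2AF1 lower. At an unadjusted p under 0.05 the same test had 798 genes. The 12th call, NPIPA7, was under 1 CPM. DESeq2 called 47 genes, limma-trend called 0 (695 at an unadjusted p under 0.05), and edgeR with no filter on low counts called 0 (787), so the calls depend on these choices. Over the other settings the adjusted p ran from 1.38e-05 to 1 for CALB1, 0.00272 to 0.934 for ZNF114, 0.00471 to 0.934 for PSG9 and 2.68e-17 to 0.934 for U2AF1, lowest in DESeq2 and highest in limma-trend. Values are CPM scaled by the trimmed mean of M-values, and log2 differences carry a prior count of 2. Strand was not given, so genes that overlap another gene are uncertain.

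The targeted gene was low in the library labelled for it. SETDB1 (chr1:150926263-150964737) was at 47.7, 52.1, 46.7 and 11.99 CPM, so its value in SETDB1 knockdown lay below all 3 others. The log2 fold change from Control was −1.99 ± 0.31 (SE) and missed the threshold in edgeR (adjusted p = 0.115), while DESeq2 gave an adjusted p of 2.55e-05. Against the 2 ATF7IP libraries SETDB1 passed, at −2.04 ± 0.29 (edgeR adjusted p = 0.0374).

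Partners of SETDB1 were mostly above Control. Of 11 genes of the SETDB1, HUSH and TRIM28 list, which includes SETDB1 itself and whose genes were all members, 9 were above 0 and 2 below, against 49.4% above 0 over all members, with a median of 0.13, and edgeR called 0. ATF7IP was at 59.1, 18.3, 18.8 and 97.8 CPM. RESF1, a SETDB1-binding regulator of retroviral silencing, was at 27.5, 24.1, 36.0 and 49.6 CPM. Both had their highest value in SETDB1 knockdown, as did ATF7IP2 at 4.66, 5.07, 4.56 and 7.06 CPM. TRIM28, the corepressor that recruits SETDB1, was at 326, 391, 288 and 260 CPM, its lowest value in SETDB1 knockdown. The HUSH subunits TASOR, MPHOSPH8 and PPHLN1 had log2 differences of 0.13, 0.03 and 0.14. None of these genes passed the test against Control.

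Other heterochromatin genes stayed close to Control. Of 22 members 11 were above 0 and 11 below, the median was −0.02, and none was 2-fold apart. DNMT1, the maintenance DNA methyltransferase, was at 271, 274, 365 and 363 CPM, so SETDB1 knockdown was level with ATF7IP hairpin 2. HELLS, a chromatin remodeller needed for DNA methylation, was at 45.2, 57.4, 76.3 and 63.0 CPM. Neither passed the test.

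CALB1, the calcium-buffering protein calbindin, rose in SETDB1 knockdown. It was at 0.403, 0.113, 0.208 and 9.75 CPM, or 28, 8, 16 and 694 counts. The other 3 libraries lay together below 0.5 CPM and SETDB1 knockdown stood far above them. The log2 difference from Control was 4.51, and both contrasts passed edgeR, with adjusted p = 0.0399 against Control and 0.00469 against ATF7IP knockdown.

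ZNF114 (chr19:48270081-48287608), a zinc finger gene that overlaps its antisense RNA, also rose. It was at 0.0288, 0.779, 0.755 and 2.98 CPM. Control held 2 counts, about 1 fragment at an assumed 4 counts per fragment that no source states, so the ratio to Control had a 95% exact interval of 8.90 to 2084 (counting error only). All 3 knockdown libraries were above Control, and SETDB1 knockdown was the highest (edgeR adjusted p = 0.0331).

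PSG9 (chr19:43253282-43269530), one of the placental pregnancy-specific glycoproteins, was at 0, 0.836, 0.651 and 3.19 CPM. It was at least 18.5-fold higher in SETDB1 knockdown than the Control floor of 3 fragments, and passed edgeR (adjusted p = 0.0172). The PSG genes share sequence, so fragments may be divided among them. Summed over 10 PSG genes the values were 36.0, 24.9, 16.4 and 67.4 CPM, highest in SETDB1 knockdown and a log2 difference of 0.91. PSG5 was at 2.67, 1.32, 0.625 and 7.62 CPM and PSG4 at 33.0, 21.9, 14.7 and 51.6 CPM, both lower than Control in each ATF7IP library and higher in SETDB1 knockdown. Neither PSG4 nor PSG5 passed the test. The 12 other placental markers listed summed to 469, 78.2, 22.7 and 207 CPM, mostly the placental alkaline phosphatase ALPP at 452, 73.9, 21.0 and 197 CPM, so their sum was below Control where the PSG sum was above it.

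U2AF1, a subunit of the factor that recognises 3′ splice sites, was called lower at 33.4, 35.8, 35.6 and 2.87 CPM (edgeR adjusted p = 0.0102). Its near-identical copy U2AF1L5, which shares 94.3% of its 50-base words, was at 56.1, 96.0, 86.5 and 110 CPM. The sum of the 2 copies was 89.4, 132, 122 and 113 CPM, so the copies together were not lower than Control. NOMO3 was at 255, 151, 349 and 41.0 CPM, while the 3 NOMO genes summed to 627, 648, 701 and 742 CPM. Both low values came with values above Control for U2AF1L5 and for NOMO1 and NOMO2. U2AF1L5 was also above Control in both ATF7IP libraries, where U2AF1 was not lower. The part of how shared fragments were assigned was not tested.

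Transcripts with the highest differences at 5 CPM or more were led by long noncoding RNAs. LINC02582 was at 4.88, 4.19, 3.65 and 27.9 CPM, a log2 difference of 2.51 that missed the threshold against Control (edgeR adjusted p = 0.0888) and passed against ATF7IP knockdown (0.0095). PINCR, a noncoding RNA (chrX:43176994-43226598), was at 1.75, 1.11, 1.48 and 9.99 CPM and also passed only against ATF7IP knockdown (edgeR adjusted p = 0.0244). LINC02154 (chrX:13266048-13303452) was at 1.337, 1.83, 3.74 and 12.5 CPM and passed neither. In each of the 3 the SETDB1 library stood above every other. LINC00707 was at 28.001, 32.6, 27.1 and 80.7 CPM, again highest in SETDB1 knockdown. UCA1 was at 38.6, 79.2, 32.8 and 94.3 CPM, so ATF7IP hairpin 1 came near it.

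Other members with high differences at 5 CPM or more had roles of several kinds. EPGN, a ligand of the epidermal growth factor receptor, was at 3.67, 4.48, 6.36 and 17.8 CPM. IL11 was at 3.03, 10.2, 5.74 and 11.5 CPM and CXCL8, a neutrophil chemokine, at 7.28, 11.6, 28.4 and 26.3 CPM, so neither stood clear of the ATF7IP libraries. TNC, a matrix glycoprotein, was at 13.6, 20.02, 53.3 and 41.0 CPM. IL7R at 7.19, 14.04, 18.1 and 18.2 CPM and ACTL8 at 18.03, 43.0, 28.1 and 46.5 CPM were likewise above Control in all 3 knockdown libraries. These 3 differences share the Control library by which the genes were ranked. DHRS2, a short-chain dehydrogenase, was at 14.7, 46.5, 11.9 and 56.8 CPM, with 1 ATF7IP library high and 1 low. None of these 7 genes passed the edgeR test against Control. GALNT4 was at 2.26, 6.25, 5.20 and 11.005 CPM, and with the read-through locus that contains it the sum was 6.60, 6.38, 10.9 and 11.1 CPM.

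Genes with the lowest differences at 5 CPM or more included several that were low in all 3 knockdown libraries. They were ranked by their difference from Control, and all 3 differences share that Control library. Low values in the ATF7IP libraries are therefore no separate support. The same holds for every gene here said to be low or high in all 3 knockdown libraries. PTPRQ, a receptor phosphatase, was at 10.9, 2.21, 1.798 and 2.26 CPM, and TAGLN, a smooth muscle actin-binding protein that overlaps PCSK7, at 31.0, 14.2, 3.79 and 8.12 CPM. SLC12A3, a sodium chloride cotransporter, was at 20.8, 23.3, 4.35 and 3.43 CPM, low in ATF7IP hairpin 2 and SETDB1 knockdown but not in ATF7IP hairpin 1. KLHL4 was at 127, 80.0, 20.03 and 41.7 CPM. CITED4, a transcriptional coactivator, was at 68.6, 58.6, 34.4 and 21.0 CPM, so SETDB1 knockdown was the lowest library. Among members of 1 to 5 CPM, DAPP1 was at 2.91, 0.170, 0.169 and 0.183 CPM and TNNT2 at 3.62, 0.198, 0 and 0.422 CPM. None of these 7 genes passed the edgeR test against Control.

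Some members stood apart in SETDB1 knockdown from all 3 other libraries. SETDB1 knockdown was at least 2-fold above each of them for 60 members (0.459%) and at least 2-fold below each for 58 (0.443%), and 48 genes a side were outside the read-through, structural and LOC classes. LTF, the iron-binding protein lactoferrin, was at 0.417, 0.269, 0.534 and 3.65 CPM. MME, a membrane metallopeptidase, was at 0.849, 0.397, 0.612 and 4.88 CPM and CSPG4, a cell surface proteoglycan, at 65.7, 40.5, 47.1 and 138 CPM. MME and CSPG4 passed against ATF7IP knockdown (edgeR adjusted p = 0.0374 and 0.0383) and not against Control (0.462 and 0.737). LTF passed neither. Against ATF7IP knockdown edgeR called 28 of 16900 genes (0.166%), 18 higher and 10 lower in SETDB1 knockdown, among them ATF7IP, the target of those hairpins.

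Heat shock and cytosolic chaperone genes lay mostly above Control. Of 48 listed genes, all of them members, 41 were above 0 and 7 below, with a median log2 difference of 0.37, against −0.0045 over all members. The ATF7IP libraries had medians of 0.07 and 0.02 for the same genes, and all 3 differences share the Control library. In 35 of the 48 the SETDB1 library was above all 3 others, as it was for 24.6% of all members. edgeR called 0 of the 48, and 7 had an unadjusted p under 0.05, beside 798 of all 16900 genes tested. The ribosomal RNA share given above was also highest in this library, and its part in the chaperone values was not tested. Against the mean of the ATF7IP libraries in place of Control, an alternative chosen after seeing the data, the median was 0.34.

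Among the highest of the list were HSPA1A and HSPA1B, which are inducible HSP70 genes. HSPA1A was at 1328, 922, 1412 and 3097 CPM and HSPA1B at 1131, 776, 1166 and 2530 CPM. The 2 copies share 71.3% of the 50-base words of HSPA1A, and their sum was 2459, 1698, 2578 and 5627 CPM, a log2 difference of 1.19. Of the cytosolic HSP90 genes, HSP90AA1 was at 2083, 2196, 3084 and 4675 CPM and HSP90AB1 had a log2 difference of 0.38. HSPA8, the constitutive HSP70, was at 2295, 2750.3, 3121 and 4485 CPM. SETDB1 knockdown was the highest library for each of these genes, while Control lay between the 2 ATF7IP libraries for HSPA1A and HSPA1B. HSPA6, another HSP70 gene, had 3 heat shock matches in its window and a log2 difference of only 0.28.

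Cochaperones lay on both sides of Control. CHORDC1, an HSP90 cochaperone, was at 193, 127, 145 and 335 CPM, DNAJB1, which stimulates HSP70, at 618, 431, 455 and 1022 CPM, and the nucleotide exchange factor HSPH1 at 478, 407, 513 and 767 CPM. BAG1, another exchange factor, was at 98.7, 127, 104 and 75.2 CPM, and HSPBP1, DNAJB6 and DNAJB2 had log2 differences of −0.25, −0.14 and −0.11. The mitochondrial chaperonin pair split, with HSPE1 at a log2 difference of 0.89 and HSPD1, which shares its promoter region, at 0.20. Subunits of the cytosolic chaperonin, such as CCT4 and CCT8, lay near 0.23 and 0.24. The small heat shock protein CRYAB was lower, at 2.32, 0.595, 0.143 and 0.576 CPM, and was low in all 3 knockdown libraries. HSF1, the main heat shock factor, was at 83.5, 95.3, 82.5 and 77.0 CPM. None of these passed the test.

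Of the 42 heat shock members with a promoter in the RefSeq table, 14 (33.3%) held a heat shock match, against 13.5% of all 35116 promoters of the same length and 10.0% of those of 10388 members. The same match was in 9 of 34 promoters of interferon-stimulated members (26.5%), whose median was −0.45. The 14 genes with a match had a median log2 difference of 0.46 and the 28 without one 0.33, with 13 and 24 above 0. The windows of HSP90AA1, DNAJB1 and HSPH1 held none of these letters. For members only the first window listed for each gene was searched, while the count of all promoters took every listed window. Any other start of HSP90AA1, DNAJB1 or HSPH1 was therefore not searched. Endoplasmic reticulum chaperone and unfolded protein response genes had a smaller shift, with 22 of 32 members above 0, a median of 0.13 and none 2-fold apart.

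**Figure D1:**
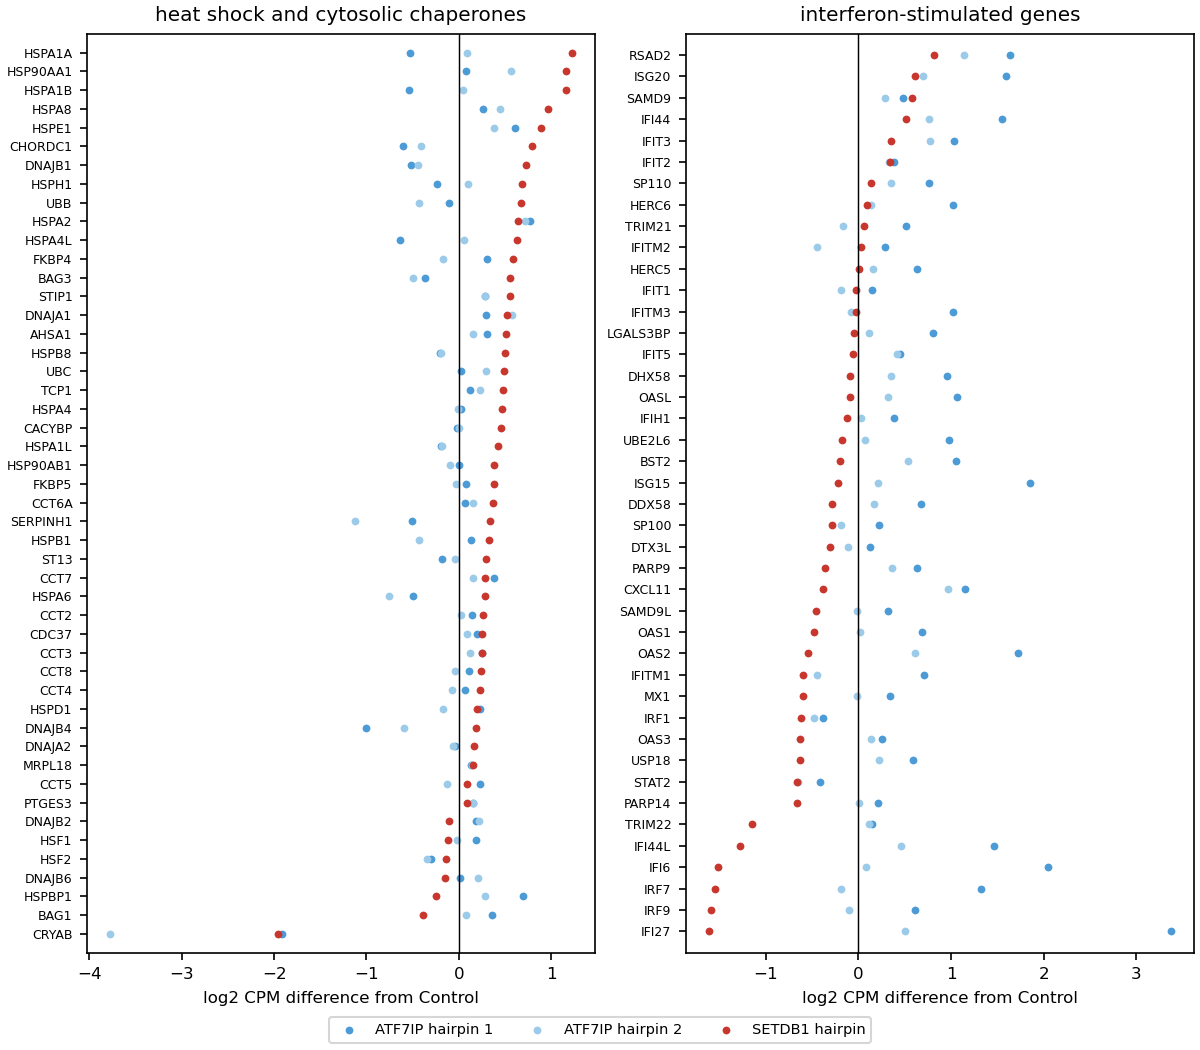
Points give the log2 CPM difference of each hairpin library from Control for the 48 heat shock members and 42 of the 43 interferon-stimulated members, in the order of SETDB1 knockdown. The red points of the chaperones run from −1.96 for CRYAB to 1.22 for HSPA1A, and those of the interferon-stimulated genes from −1.61 for IFI27 to 0.82 for RSAD2.

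Interferon-stimulated genes, which act in antiviral defence, had the opposite sign. Of 51 listed genes 43 were members, with 11 above 0 and 32 below, 6 at least 2-fold lower, and a median log2 difference of −0.28. The ATF7IP libraries had medians of 0.67 and 0.13 for these genes. In 30 of 43 the SETDB1 library was below all 3 others, as it was for 25.7% of all members. edgeR called 0 of them, with 4 at an unadjusted p under 0.05 beside 798 of the 16900 tested, and against the ATF7IP libraries in place of Control the median was −0.65.

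The factors that carry the interferon signal to the nucleus were among the low genes. IRF9, the DNA-binding subunit of the interferon-activated complex, shares 43.6% of its words with other gene models and was at 19.3, 29.5, 18.01 and 6.37 CPM, and IRF7 at 7.42, 18.7, 6.49 and 2.52 CPM. SETDB1 knockdown had the lowest value of both. The effector genes IFI27 at 3.15, 32.9, 4.47 and 1.01 CPM and IFI6 at 24.1, 100.2, 25.5 and 8.39 CPM were far higher in ATF7IP hairpin 1 than in any other library, so the 2 ATF7IP hairpins differed from each other on them. IFI44L was at 12.4, 34.3, 17.1 and 5.07 CPM. Other effectors were above Control, with RSAD2 at 17.2, 53.4, 37.9 and 30.4 CPM and IFIT3 at 103, 210, 176 and 131 CPM. Of 34 members with a promoter, 21 (61.8%) held the interferon letters, against 3.57% of all promoters and 2.71% of those of members. The median was −0.12 for these 21 genes and −0.36 for the 13 without a match.

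Sensors of double-stranded RNA and DNA were near Control. Of 18 members 6 were above 0 and 12 below, with a median of −0.13 and none 2-fold apart. OAS3, an oligoadenylate synthetase activated by double-stranded RNA, was at 207, 247, 228 and 134 CPM and STING1 at 23.9, 29.7, 29.4 and 16.3 CPM, both lowest in SETDB1 knockdown. None of the list passed the test.

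Genes of the first complement component had their lowest value in SETDB1 knockdown. C1S, the protease that cleaves C4 and C2, was at 22.8, 29.2, 33.2 and 7.28 CPM and C1R, which activates it, at 38.6, 71.9, 69.9 and 15.3 CPM. C3, the central component, was at 135, 159, 230 and 56.0 CPM. The ATF7IP libraries were above Control for all 3 genes and SETDB1 knockdown below it. C1S and C1R passed against ATF7IP knockdown, with log2 fold changes of −2.10 ± 0.30 and −2.21 ± 0.28 (edgeR adjusted p = 0.0383 and 0.0244), and not against Control (0.294 and 0.401). C3 passed neither (edgeR adjusted p = 0.105 and 0.737). Over the acute-phase, complement and coagulation list 17 of 49 genes were members, 12 of them below 0 and 5 at least 2-fold lower, with a median of −0.34. The membrane regulators CD46, CD55 and CD59, which protect cells from complement, had log2 differences of −0.53, −0.30 and 0.20.

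ID1, ID2 and ID3, inhibitors of basic helix-loop-helix factors and early targets of bone morphogenetic proteins, also had their lowest value in SETDB1 knockdown. ID3 was at 233, 274, 147 and 64.2 CPM, ID1 at 116, 213, 105 and 45.05 CPM and ID2 at 11.6, 14.4, 9.72 and 7.66 CPM. SMAD6, an inhibitory SMAD induced by the same signal, was at 20.8, 39.9, 24.9 and 9.91 CPM. In all 4 genes SETDB1 knockdown was the lowest library and ATF7IP hairpin 1 the highest. The ligands and receptors were near Control, with BMP6 at a log2 difference of −0.01, BMP2 at 0.24 and BMPR2 at 0.0010. FST, a secreted activin and BMP antagonist, was at 3.16, 6.49, 4.77 and 6.97 CPM. Over the list, 10 of 28 members were above 0, the median was −0.11 and edgeR called 0, and the lowest adjusted p of the named genes was that of ID3 (0.464; DESeq2 0.00454).

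Collagen chain genes had medians below Control in every knockdown library. Of 24 members 19 were below 0 in SETDB1 knockdown and 8 were at least 2-fold lower, with a median of −0.48 beside −0.35 and −0.45 in the ATF7IP libraries. Against the ATF7IP libraries in place of Control the median was −0.02. COL3A1, a fibrillar collagen, and COL15A1, a basement membrane collagen at 33.5, 13.1, 9.48 and 9.43 CPM, followed this pattern. COL18A1 was lowest in SETDB1 knockdown, at 57.7, 72.5, 50.3 and 27.6 CPM, and so was COL16A1 at 15.6, 17.3, 18.1 and 7.38 CPM. edgeR called 0 of the 24, and 9 had an unadjusted p under 0.05, beside 798 of the 16900 tested. The 11 fibroblast and stellate markers, 7 of them members, summed to 495, 271, 236 and 307 CPM, mostly COL3A1, which is in both lists. LUM and DCN had log2 differences of 0.18 and −0.07, COL1A2 had at most 11 counts, and the part of these cells' markers in the collagen values was not tested.

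The Hippo pathway list, which holds components such as YAP1 and TEAD1 as well as targets, also had a median below 0. Of 24 members 20 were below 0, where 49.4% of all members were above 0. The median was −0.23 beside −0.39 and −0.36 in the ATF7IP libraries, and it is not one of targets alone. CCN1, a matricellular protein, was at 651, 484, 217 and 255 CPM. NT5E, an ectonucleotidase, was above every other library in SETDB1 knockdown, at 67.7, 50.4, 37.0 and 135 CPM. The list median was lower in both ATF7IP libraries than in SETDB1 knockdown, and edgeR called none of its genes.

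Feedback regulators of the MAPK pathway, listed with other genes tied to it such as CCND1 and FOSL1, were mostly above Control. Of 26 members 22 were above 0, against 49.4% of all members. The median was 0.24 beside 0.08 and −0.16 in the ATF7IP libraries. In 19 the SETDB1 library was above all 3 others, as it was for 24.6% of all members. SPRY4, which dampens signals from growth factor receptors, was at 13.7, 14.1, 14.1 and 25.1 CPM, DUSP4, a phosphatase of ERK, at 96.0, 108, 104 and 140 CPM and CCND1 at 464, 414, 294 and 621 CPM. DUSP1 was at 459, 427, 276 and 360 CPM. None was 2-fold apart or passed the test.

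Inflammatory genes differed among themselves. The interleukin 1 genes were low in every knockdown library, with IL1A at 12.9, 2.86, 2.37 and 3.11 CPM and IL1B at 4.06, 0.808, 1.19 and 0.492 CPM. CASP1, the protease that matures IL1B, was at 1.74, 1.30, 1.39 and 0.337 CPM. The feedback inhibitor NFKBIA was at 89.5, 75.7, 81.2 and 45.7 CPM and TNFAIP3 at 70.9, 63.7, 79.7 and 43.3 CPM, both lowest in SETDB1 knockdown. IL6 was highest in the ATF7IP libraries, at 24.3, 66.1, 82.7 and 29.1 CPM, and its receptor IL6R was at 9.45, 5.53, 8.73 and 22.2 CPM. Over 34 members 22 were below 0 with a median of −0.22, and edgeR called 0.

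Among gene classes that SETDB1 is known to silence, zinc finger genes lay mostly above Control. Of 349 zinc finger members, 231 were above 0 (66.2%, beside 49.4% of all members), with a median of 0.14, and 7 were at least 2-fold higher and none lower. The ATF7IP libraries had medians of −0.07 and 0.14 for them. Besides ZNF114, ZNF556 (chr19:2867335-2883445) was at 0.115, 0.595, 0.964 and 1.98 CPM, ZNF229 at 1.35, 0.709, 1.73 and 3.08 CPM, and ZNF554 at 4.52, 3.63, 5.65 and 9.36 CPM. Only ZNF114 of the 349 was called. Of 70 germline and cancer-testis genes 12 were members, 9 of them above 0 and 3 at least 2-fold higher. TEX19 was at 0.561, 0.893, 1.26 and 2.40 CPM and the X-linked PAGE1 at 5.94, 10.1, 6.96 and 14.3 CPM. PRAME was at 34.3, 44.0, 45.3 and 55.7 CPM. None of the germline genes passed the test. Imprinted genes are another of these classes. Of 23 imprinted members 8 were above 0 and 15 below, beside 49.4% of all members above 0, and none was 2-fold apart. The median of these genes was −0.09 in SETDB1 knockdown, between the −0.07 and −0.14 of ATF7IP hairpins 1 and 2. Their log2 differences ran from −0.51 for CDKN1C to 0.76 for PHLDA2, and none of them passed the test.

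The list of genes derived from endogenous retroviruses and other retrotransposons had 11 members, 5 above 0 and 6 below. These counts by gene symbol do not measure the repeats themselves. The members with an ERV symbol, ERV3-1, ERVK3-1 and ERVK13-1, had log2 differences of 1.58, 0.30 and 0.72. The 6 below 0 had RTL or PNMA symbols, and edgeR called none of the list. ERV3-1, which overlaps ZNF117, was at 0.777, 0.638, 2.71 and 2.38 CPM and the neuronal capsid gene ARC at 2.50, 2.99, 3.36 and 6.14 CPM. Of 53 clustered protocadherins 1 was a member, and of 10 PSG genes 3 were. Replication-dependent histones, whose transcripts largely lack a polyA tail, had 12 members of 66, with 11 below 0 and a median of −0.26.

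A few members were at or under the floor of 12 counts on 1 side. In Control these were 11 members, of which the 5 outside the read-through and LOC classes were ZNF556, PSG9, ZNF114, FSBP and FAM239A. FSBP lies within RAD54B and shares 85.8% of its words with it, and the 2 together were at 54.1, 42.2, 54.0 and 62.0 CPM. In SETDB1 knockdown 7 members were at the floor, 6 read-through loci and LGSN. LGSN was at 2.56, 1.13, 0.456 and 0.0703 CPM, a ratio to Control of 0.000538 to 0.127 (95% exact interval, counting error only, at 1 fragment in SETDB1 knockdown).

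The series names CYB5R2 and PARK7, linked there to ferroptosis, a cell death driven by lipid peroxidation. CYB5R2 was at 0.0719, 0.510, 1.12 and 0.604 CPM, too low to be a member. Control held about 1 fragment, and the ratio of SETDB1 knockdown to it had a 95% exact interval of 1.56 to 463, so the size was not determined at this depth (edgeR adjusted p = 0.913). PARK7 was at 246, 333, 282 and 255 CPM, a log2 difference of 0.05. Of 40 ferroptosis members 23 were above 0, with a median of 0.06. GPX4, which reduces lipid peroxides, was at 151, 200, 141 and 128 CPM, SLC7A11, the cystine importer, at 313, 392, 530 and 498 CPM, and ACSL4, which activates polyunsaturated fatty acids, at 191, 153, 190 and 210 CPM. The ferritin chains FTH1 and FTL had log2 differences of 0.28 and 0.39. No gene of the list passed the test.

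Among the few liver-associated genes that were expressed, CPS1, the first enzyme of the urea cycle, was at 583, 503, 441 and 218 CPM. SETDB1 knockdown was lowest, with a log2 difference of −1.42 (edgeR adjusted p = 0.464, DESeq2 0.00381). ASS1, a later enzyme of the same cycle, was at 615, 636, 428 and 613 CPM, level with Control.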

How the data were processed

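Polyadenylated RNA was measured in 4 libraries. Per the submitters' processing notes, the tools were HISAT2 2.2.1, StringTie 2.2.1 and DESeq2 1.34.0 with build hg38; the annotation and the counting step are not given in the sources used here. Deposited values are estimated counts per gene, taken as whole numbers. CPM was computed with TMM library sizes in edgeR 4.0.16 (R 4.3.3), and membership used library totals. Genes with a count of at least 10 by edgeR's filter entered 1 fit over all 4 libraries, with quasi-likelihood tests and Benjamini-Hochberg adjustment, and scripts were tested on simulated data. DESeq2 1.42.0 and limma 3.58.1 served as alternatives. The floor of 3 fragments (12 counts at an assumed 4 counts per fragment) and the 95% exact intervals (scipy 1.17.1) cover counting error only.

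Members and lists were chosen with earlier results of these data known. Named genes were SETDB1, ATF7IP, CYB5R2 and PARK7, every called gene, the 15 highest and 15 lowest differences at 5 CPM or more, the 6 highest and 6 lowest at 1 to 5 CPM, the 5 most apart from all other libraries on each side, and up to 5 genes of each list; further list genes, the identity markers and the interferon letters were chosen after their values were seen.

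Results on a few genes are not reported here.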

Additional observations from a re-analysis of the deposited data

Results flagged for a closer look

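The difference of SETDB1 knockdown from the 2 ATF7IP libraries passed edgeR's quasi-likelihood test with Benjamini-Hochberg adjustment for 28 genes. Values are given here for 7 of them. SETDB1, ATF7IP, U2AF1, RN7SL2 and LUM, which are named above, were also among the 28. This is a test of the difference between the hairpins and rests on 1 SETDB1 library. The log2 fold change was 5.90 ± 0.48 (SE) for CALB1 (adjusted p = 0.00469), 2.83 ± 0.30 for LINC02582 (0.0095), 2.95 ± 0.38 for PINCR (0.0244), 3.27 ± 0.46 for MME (0.0374) and 1.65 ± 0.24 for CSPG4 (0.0383). It was −2.10 ± 0.30 for C1S (0.0383) and −2.21 ± 0.28 for C1R (0.0244). The 7 were named for their high or low values in SETDB1 knockdown, as members of a list or after their values were seen, so where they lie against Control is no further support.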

How the results depend on the processing

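Of 12 genes called against Control (8 higher, 4 lower), edgeR with DESeq2 size factors called 7 (5 and 2), edgeR with no filter on low counts 0 (0 and 0; 787 at an unadjusted p under 0.05), edgeR without read-through loci and structural RNAs 5 (4 and 1), DESeq2 47 (22 and 25) and limma-trend 0 (0 and 0; 695). Of 28 called against ATF7IP knockdown (18 higher, 10 lower), the same settings called 11 (8 and 3), 8 (6 and 2), 20 (14 and 6), 173 (106 and 67) and 0 (0 and 0; 1405 unadjusted). At a mean of at least 5 CPM 49 members were 2-fold higher and 122 lower than Control, and with no filter 1859 and 1656. Without ATF7IP hairpin 1 or 2 the counts were 176 to 176 and 230 to 230. These counts compare only Control and SETDB1 knockdown, so leaving out an ATF7IP library could change them only through the scaling. By alternatives chosen after seeing the data, 20 members at 5 CPM or more were 2-fold above and 27 below all other libraries. Without ATF7IP hairpin 1 or 2 the members 2-fold apart from all other libraries were 83 to 83 above and 66 to 89 below, the highest without ATF7IP hairpin 2. Apart from scaling, leaving out a library could only raise these counts. The median of collagen chains at 5 CPM or more was −0.66, and that of pregnancy-specific glycoproteins 1.07, which rests on PSG4 and PSG5 only. The causes were not tested. No paired analysis was possible because Control and SETDB1 knockdown have 1 library each. The edgeR fits without 1 ATF7IP library were not run, since they leave no residual degrees of freedom. The balance of higher and lower genes turned in several of these counts, and the median of all members was 0.0028 with DESeq2 size factors, beside −0.0045. The median of other heterochromatin genes was 0.0043 at 5 CPM or more, beside −0.02. Depth limits genes near 12 counts in a library, such as CYB5R2 and ZNF114 in Control.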
